A study of Mus musculus with 2 samples.

Results

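Of the 5263 CD45+ cells kept from mouse hearts, 534 were macrophages with resident macrophage genes, high MHC class II and few Lyve1 subset genes. The share was 10.1% (95% exact Clopper-Pearson interval 9.34 to 11). These cells are called MHC-II-high resident macrophages here. Each cell was chosen on its own reads, as reads per 1000000 reads of the cell (CPM). The rule asked for Csf1r, the receptor of macrophage colony-stimulating factor, at 500 CPM or more and for H2-Ab1, the beta chain of the MHC class II molecule I-A, at 3000 CPM or more. It also asked for at least 2 of the resident genes Lilra5, Slco2b1, Cadm1 and St3gal6 at 50 CPM or more, and for fewer than 2 of Lyve1, Folr2, Cd163 and Cbr2 at 100 CPM or more. Cells with Saa3 at 1000 CPM or more, Mki67 at 50 CPM or more or Cd79a at 200 CPM or more were left out. Since the cells were picked by these reads of the same library, the levels of their genes are given as a description.

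The CD45+ cells came from the hearts of male mice aged 8 weeks, labelled C57BL/6N as a pool, while for the CD3ϵ-/- mice the methods give the background as C57BL/6. Hearts were taken 1 week after sham surgery or transverse aortic constriction (TAC), which narrows the aorta and puts a pressure load on the left ventricle. There were 5 groups, and values are given in the order of WT mice after sham surgery (WT sham), CD3ϵ-/- mice after sham surgery (CD3ϵ-/- sham), WT mice after TAC (WT TAC), CD3ϵ-/- mice after TAC (CD3ϵ-/- TAC) and WT mice after TAC that had been depleted of CD8+ T cells by an antibody (CD8-depleted TAC). CD3ϵ-/- mice lack a chain of the T cell receptor complex and have no mature T cells. The hearts were perfused, digested with enzymes and enriched for CD45, the surface marker of leukocytes, and the cells of each group were marked with a hashtag, then barcoded together on beads in the microwells of a BD Rhapsody cartridge and read out as 1 pooled library by TAS-Seq. The number of mice behind a hashtag is not given in the sources used here, so each group was 1 sample. No test could be made between groups, and all intervals cover counting error only, on reads that are not independent molecules.

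Tissue macrophages of the adult heart fall into a subset that expresses Timd4, Lyve1 and Folr2, is maintained in place and clears debris, and a subset with high MHC class II that presents peptides to CD4+ T cells and is partly renewed from blood monocytes. Another population carries Ccr2, the receptor through which monocytes leave the blood, and derives from them. MHC class II molecules are loaded with peptide in the endosome with the help of the invariant chain Cd74 and of H2-DM, and their genes are switched on together by the co-activator Ciita.

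The genes that the rule did not use placed the cells among macrophages. The 15 genes of resident macrophage identity summed to 18897, 18573, 19847, 21811 and 18946 CPM in the 5 groups, and none of them was at 0. The same genes summed to between 19866 and 23961 CPM in the cells with 2 or more of Lyve1, Folr2, Cd163 and Cbr2, called TLF-type macrophages here, and to between 6390 and 10224 CPM in the other MHC-II-high cells, which met the limits on Csf1r and H2-Ab1 but not on the resident genes. Timd4 was read in 7 of the 534 cells. Ccr2 was at 500 CPM or more in 217 of them (40.6%), so the name resident refers to the genes and not to the origin of the cells. Markers of lymphocytes and granulocytes were low: the 13 T and NK cell markers summed to 20.6, 16.2, 17.2, 16.9 and 58.4 CPM with 9, 8, 8, 10 and 5 of them at 0, and the 7 neutrophil markers to between 51.3 and 74.0 CPM, mostly Csf3r. The 9 B cell markers summed to between 287 and 492 CPM with 5, 5, 5, 7 and 5 of them at 0, mostly Ighm, against 15276 to 19311 CPM in B cell-like cells. The 13 stromal and heart muscle markers summed to between 26.8 and 62.1 CPM.

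The depth and the labels differed between groups. The macrophages held between 4133518 reads in 32 cells of CD3ϵ-/- TAC and 12745284 reads in 131 cells of WT TAC, with medians of 65880, 60978, 83997, 113600 and 72150 reads per cell and a range of 22381 to 361406. Cells of TAC groups were thus read more deeply, and shares of cells with a read are given after each cell was thinned to 33653 reads, which kept 134, 133, 125, 31 and 57 cells. Cd3g, a chain of the T cell receptor complex, was read in 53, 3, 47, 1 and 32 of all kept cells, so it was rare where the label is CD3ϵ-/-. Cells with Cd3g and a CD8 chain numbered 8, 0, 11, 0 and 4, or 0.681% (0.340 to 1.22) of kept cells in WT TAC and 0.447% (0.122 to 1.14) in CD8-depleted TAC. The depletion of CD8+ T cells was therefore not detectable at this depth and is taken from the label. No barcode was shared between the groups.

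MHC-II-high resident macrophages were a smaller share of CD45+ cells in the TAC groups than in the sham groups, and the smallest in CD3ϵ-/- TAC. They numbered 156 of 1000 cells in WT sham, or 15.6% (13.4 to 18), and 152 of 835 in CD3ϵ-/- sham, or 18.2% (15.6 to 21.0). They numbered 131 of 1615 in WT TAC, or 8.11% (6.83 to 9.55), 32 of 919 in CD3ϵ-/- TAC, or 3.48% (2.39 to 4.88), and 63 of 894 in CD8-depleted TAC, or 7.05% (5.46 to 8.93). The intervals of the sham groups lay above those of all TAC groups, and that of CD3ϵ-/- TAC lay below all others, while those of the sham groups overlapped each other, as did those of WT TAC and CD8-depleted TAC. A lower share of sorted cells can come from fewer such cells, more of the others, or cells crossing a limit of the rule. These routes cannot be told apart here. Cells that missed the H2-Ab1 limit alone numbered 56, 19, 71, 29 and 49 in the order of the groups.

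The order of the groups was alike when the cells were counted against macrophages and monocytes alone. Of the cells with Csf1r at 500 CPM or more, 27.1% (23.5 to 30.9), 33.1% (28.8 to 37.6), 11.9% (10 to 13.9) and 10.1% (7.88 to 12.8) were MHC-II-high resident macrophages in WT sham, CD3ϵ-/- sham, WT TAC and CD8-depleted TAC, and 4.83% (3.33 to 6.76) were in CD3ϵ-/- TAC. The neighbouring classes followed other orders. TLF-type macrophages made up 14.6% (12.5 to 16.9), 6.47% (4.90 to 8.35), 7.93% (6.65 to 9.35), 5.66% (4.25 to 7.35) and 9.40% (7.56 to 11.5) of kept cells, with WT sham above the other groups. The other MHC-II-high cells made up 11.1% (9.22 to 13.2), 14% (11.7 to 16.6), 20.0% (18.1 to 22.0), 26.8% (23.9 to 29.8) and 17.9% (15.4 to 20.6), with the highest share in CD3ϵ-/- TAC, the group with the lowest share of MHC-II-high resident macrophages.

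**Figure D1:**
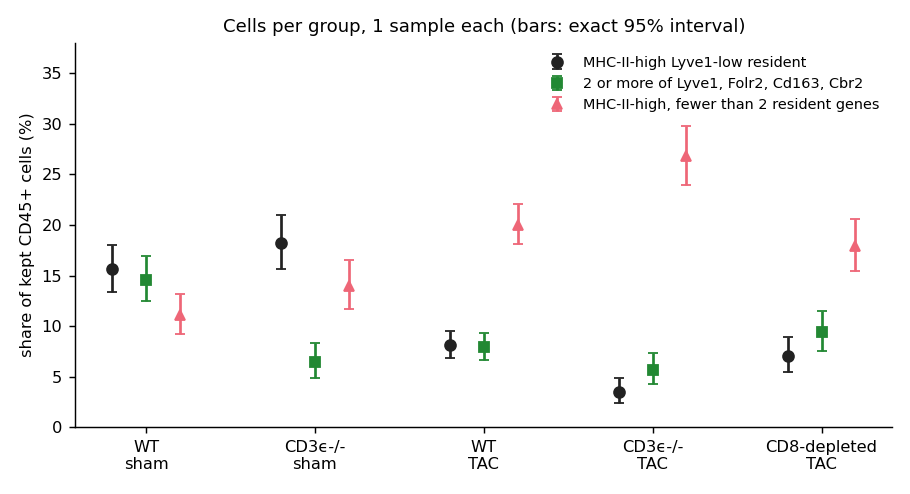
Share of kept CD45+ cells (percent, vertical axis) that were MHC-II-high resident macrophages, TLF-type macrophages or other MHC-II-high cells in each of the 5 groups, with exact 95% intervals for counting error. The MHC-II-high resident macrophages made up 15.6% and 18.2% in the sham groups and between 3.48% and 8.11% in the TAC groups, while the other MHC-II-high cells had their highest share, 26.8%, in CD3ϵ-/- TAC.

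The genes of the rule varied widely among the chosen cells. Csf1r ranged from 516 to 5831 CPM with a median of 2148, and H2-Ab1 from 3010.1 to 21073 CPM with a median of 8957. The median of H2-Ab1 was 9208, 9925, 8798, 6510 and 8237 CPM in the 5 groups, lowest in CD3ϵ-/- TAC. Of the resident genes, Slco2b1, which encodes an organic anion transporter, was read in 465 cells, St3gal6, a sialyltransferase, in 454, Lilra5, an immunoglobulin-like receptor, in 396, and Cadm1, a cell adhesion molecule, in 322. The median of Lilra5 was 251 and 211 CPM in the sham groups and 104, 128 and 31.7 CPM in the TAC groups. The rule was met with 2 of the resident genes in 225 cells (42.1%), with 3 in 216 (40.4%) and with all 4 in 93 (17.4%). Cells with 3 or 4 of them made up 66% (58 to 73.4), 65.8% (57.7 to 73.3), 54.2% (45.3 to 62.9), 50% (31.9 to 68.1) and 30.2% (19.2 to 43.0). The last interval lay below those of both sham groups and of WT TAC.

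Of the excluded genes, 1 of Lyve1, Folr2, Cd163 and Cbr2 was at 100 CPM or more in 169 cells (31.6%) and none in 365. Lyve1, a hyaluronan receptor, was read in 3 cells and Folr2, a folate receptor, in 10, but Cd163, the haemoglobin scavenger receptor, was read in 72 and Cbr2 in 102. The cells near the limits formed no gap. The lowest H2-Ab1 levels inside the rule were 3010.1 to 3103 CPM, and the highest of the cells that missed this limit alone were 2988 to 2954 CPM. The lowest Csf1r levels inside were 516 to 550.5 CPM and the highest outside were 499 to 438 CPM. H2-Ab1 alone kept 224 cells out, the limit on the Lyve1 set 122, and the resident genes 957, which are the other MHC-II-high cells. Mmp13, a collagenase given as a marker of these cells, was read in 179 of the 534, with a highest level of 14288 CPM, and Cd81, a tetraspanin, was read in 487 with a median of 829 CPM.

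Compared with the other MHC-II-high cells, the MHC-II-high resident macrophages differed by some genes of complement and of the uptake of dying cells on the higher side and by monocyte genes on the lower side. Among 2959 genes with 50 CPM or more, 30 (1.01%) were higher by 2-fold or more in each of the 5 groups and 30 (1.01%) were lower, with 10 CPM added to both levels. These were comparisons between classes chosen on the same reads. C1qa, a chain of the first complement component, was at 3841, 3838, 4285, 5149 and 4137 CPM, against 1067 to 2059 CPM in the other MHC-II-high cells and at most 14 CPM in B cell-like cells. Col14a1, a fibril-associated collagen, was at 268, 298, 231, 241 and 205 CPM, with a log2 ratio to the other MHC-II-high cells between 2.12 and 3.63. It was read in 58.2%, 62.4%, 54.4%, 64.5% and 56.1% of thinned cells, so its level did not rest on a few cells. Gas6, the bridge between dying cells and the receptor Mertk, was higher than in the other MHC-II-high cells by log2 ratios of 1.63 to 2.45, Stab1, a scavenger receptor, by 1.34 to 2.81, and Pf4, the chemokine platelet factor 4, by 2.04 to 3.03. Of the genes lower in these macrophages, Plac8 differed by log2 ratios of -2.57 to -5.56, S100a4 by -2.24 to -3.84, Fn1, fibronectin, by -1.98 to -5.39 and S100a6 by -1.48 to -3.94, all of them genes that monocytes express.

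By list, 4 of the 13 measured identity genes (C1qa, C1qc, Cd81 and the mannose receptor Mrc1) were higher in all 5 groups than in the other MHC-II-high cells, and the median over the list was 1.10 against -0.09 over all genes. Of 10 measured complement genes, 3 were higher, C1qa and C1qc among them, and of 9 efferocytosis genes, 3 (Gas6, Stab1 and Mrc1) were. Of 8 matrix and protease genes, Mmp13 and Col14a1 were higher and Fn1 lower, with a median of -0.66. The 9 measured MHC class II genes had a median of 0.02 with none past the fold, which the limit on H2-Ab1 in both classes bears on. The 8 measured glycolysis genes had a median of -0.90, with none past the fold in all 5 groups.

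Compared with TLF-type macrophages, the cells shared the identity genes and differed in the subset genes. Both classes were chosen on the same reads. The H2-Ab1 limit held for the MHC-II-high resident macrophages but not for TLF-type macrophages, which were chosen on Lyve1, Folr2, Cd163 and Cbr2. The choice of cells thus bears on the class II and Lyve1 subset genes, whose ratios are a description. Of the 14 measured identity genes, none was higher or lower in all 5 groups and the median was -0.13 against -0.04 over all genes. Of 2817 genes, 3 (0.106%) were higher in each group and 15 (0.532%) were lower. The 3 were Asb2, with log2 ratios of 1.60 to 2.63, and the MHC class II chains H2-Eb1, with 1.07 to 2.5, and H2-Aa, with 1.01 to 2.38. F13a1, the transglutaminase coagulation factor XIII A, was lower in all groups: it was at 364, 303, 307, 179.8 and 306 CPM against 2110, 1638, 1736, 1117 and 1733 CPM. C4b, a complement component, was lower by log2 ratios of -2.21 to -3.20, Ltc4s, the leukotriene C4 synthase, by -2.16 to -5.53, and Ccl24, an eosinophil-attracting chemokine, by -1.85 to -2.80. Gas6 lay between both neighbours, at 107, 144, 113, 157 and 95.8 CPM, against 338 to 546 CPM in TLF-type macrophages and 14.3 to 29.6 CPM in the other MHC-II-high cells. Mrc1 followed the same order in all 5 groups, at 1166 to 1417 CPM, above the other MHC-II-high cells and below TLF-type macrophages.

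**Figure D2:**
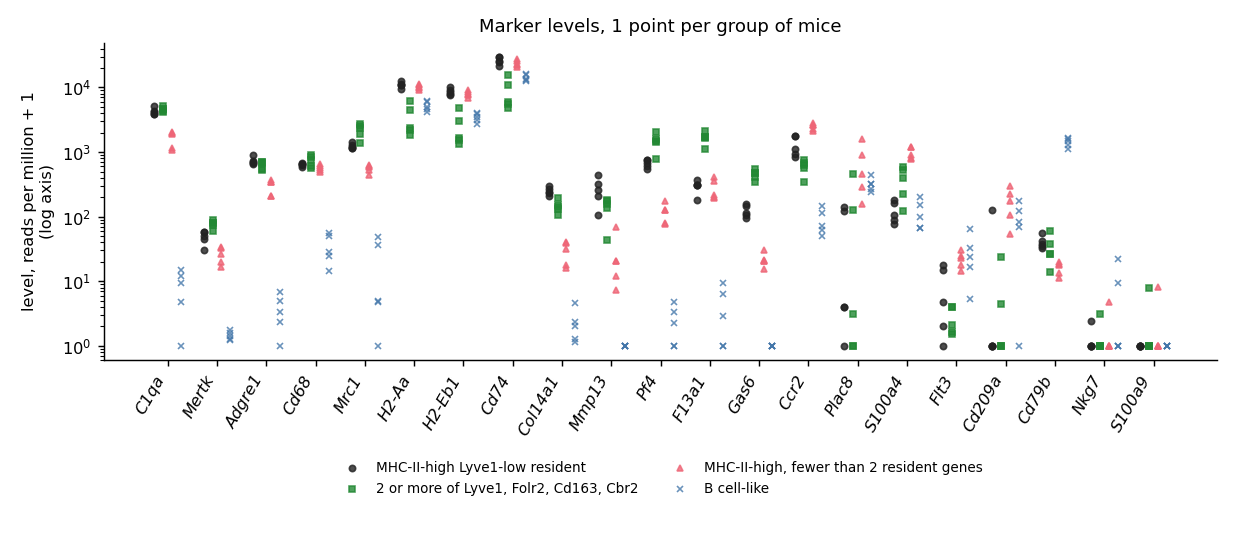
Level of 21 genes (CPM plus 1, log axis) in MHC-II-high resident macrophages, TLF-type macrophages, other MHC-II-high cells and B cell-like cells, with 1 point per group. C1qa lies between 3838 and 5149 CPM in the MHC-II-high resident macrophages, above the 1067 to 2059 CPM of the other MHC-II-high cells, and F13a1 between 179.8 and 364 CPM, below the TLF-type macrophages.

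The MHC class II genes other than H2-Ab1 were at levels that are common to both classes chosen on H2-Ab1. H2-Aa, the alpha chain of I-A, was at 11429, 12449, 10935, 9419 and 10780.1 CPM, against 9202 to 11342 CPM in the other MHC-II-high cells and 1806 to 6173 CPM in TLF-type macrophages. H2-Eb1, the beta chain of I-E, was at 9196, 10165, 8647, 7651 and 7788 CPM, and Cd74 at 29104, 29459, 25298, 21268 and 24719 CPM. All were highest in CD3ϵ-/- sham and lowest in CD3ϵ-/- TAC. The class II promoters carry a conserved module whose Y box binds the factor NF-Y. The exact letters CTGATTGG on either strand were found within 250 bases before the start of 3 of 10 class II list genes with an entry (H2-Aa, H2-Eb1 and H2-Oa) and of 3.83% of 32851 windows of this length in RefSeq on GRCm38.p6. The promoters of H2-Aa (chr17:34287824-34287983, minus strand) and H2-Eb1 (chr17:34305707-34305866, plus strand), the class II chains of the highest level among those with an entry, are shown 5′ to 3′ with these letters in capitals.
H2-Aa: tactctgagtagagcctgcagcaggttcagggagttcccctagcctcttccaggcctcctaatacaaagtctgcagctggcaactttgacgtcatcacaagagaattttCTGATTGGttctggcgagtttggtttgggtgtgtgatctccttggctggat
H2-Eb1: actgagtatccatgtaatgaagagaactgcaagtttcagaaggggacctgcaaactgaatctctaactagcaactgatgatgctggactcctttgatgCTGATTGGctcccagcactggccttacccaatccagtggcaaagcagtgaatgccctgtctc
In both, the letters lie close before the start of the gene, at 51 to 44 bases in H2-Aa and 62 to 55 bases in H2-Eb1. A match is a description of the sequence and no evidence of binding.

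Between TAC and sham, the class II chains of these macrophages differed by less than the fold, within the bound that H2-Ab1 set. The log2 ratio of TAC to sham was -0.06 in WT and -0.40 in CD3ϵ-/- for H2-Aa, -0.09 and -0.41 for H2-Eb1, and -0.20 and -0.47 for Cd74. In TLF-type macrophages, where no limit on class II held, H2-Aa differed by -1.02 and -1.77 and Cd74 by -0.99 and -1.71. The summed class II list had medians of 64559, 69758, 58084, 48028 and 60866 CPM per cell, with lowest cells at 20687, 22696, 21046, 25492 and 23430 CPM and highest cells at 135891, 125148, 108333, 100539 and 109744 CPM. Cells above the common median of the sham groups, 66971 CPM, made up 46.2% (38.2 to 54.3), 53.9% (45.7 to 62.1), 35.9% (27.7 to 44.7), 21.9% (9.28 to 40.0) and 33.3% (22.0 to 46.3), so the ranges overlapped while fewer cells of the TAC groups lay in the upper part. Of the 9 measured class II genes, none passed the fold in WT, and Ifi30, the lysosomal thiol reductase that opens disulfide bonds of antigens, was higher in CD3ϵ-/- by 1.21.

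The comparison of TAC with sham asked what a week of pressure load changed in the cells that still met the rule, in mice with and without T cells. In WT, 52 of 3753 genes (1.39%) were higher by 2-fold or more and 45 (1.2%) lower. In CD3ϵ-/-, 230 of 3928 (5.86%) were higher and 190 (4.84%) lower, or 168 and 253 when the groups were scaled by the median ratio of genes and 130 and 259 without the top cell of each gene, an alternative chosen after the data were seen. The median over all genes was 0.03 in WT and 0.12 in CD3ϵ-/-. With 32 cells in CD3ϵ-/- TAC, more genes pass a fold by the content of a few cells, so these counts were not compared between genotypes. The genotypes share no cells, and 18 of 3380 genes (0.533%) were higher and 28 (0.828%) were lower by 2-fold or more in both. Those higher in both were led by the interferon-related genes Slfn1, Irf7, Ly6e and Ifit3, the lysosomal protease gene Ctsd, the membrane genes Ms4a7 and Ms4a4c, the Fc receptor gene Fcgr4 and the signal-regulatory genes Sirpb1a and Sirpb1c. Those lower in both were led by immediate early genes such as Fosb, Egr1, Atf3, Klf2 and Jun, with the heat shock genes Hspa1a and Hspa1b and the cytokine genes Ccl3 and Tnf. Of these, Atf3, Hspa1a and Ccl3 in WT were not lower with the first 32 cells of each group, also chosen after the data were seen, at 0.22, 0.22 and 0.02.

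**Figure D3:**
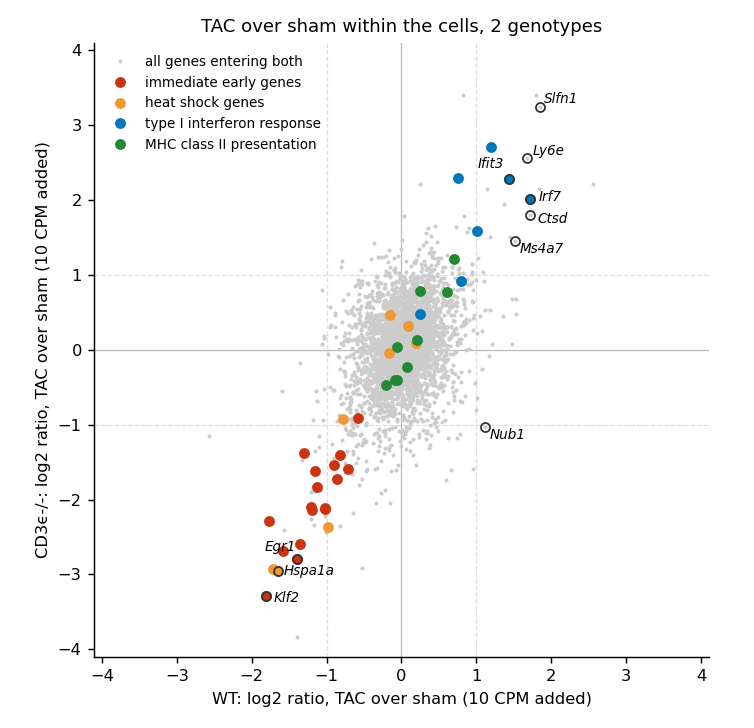
Log2 ratio of TAC to sham in WT (horizontal axis) and in CD3ϵ-/- (vertical axis) for each gene that entered both comparisons in MHC-II-high resident macrophages, with 4 gene lists in colour and dashed lines at 2-fold. Immediate early genes such as Egr1 (-1.40 and -2.79) lie in the lower left and interferon genes such as Ly6e (1.67 and 2.56) in the upper right, and Nub1 (1.12 and -1.04) lies past the fold in opposite directions.

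Immediate early genes, which code for transcription factors and feedback regulators that are induced within minutes of a stimulus, were lower after TAC in both genotypes. In WT, 12 of 17 measured genes were lower by 2-fold or more and none higher, with a median of -1.15. In CD3ϵ-/-, 16 of 18 were lower and none higher, with a median of -1.97. Egr1, a zinc finger factor, was at 4466 (4426 to 4506), 4389.6 (4350.1 to 4429), 1685 (1662 to 1707), 625 (601 to 650.0) and 1267 (1238 to 1296) CPM. The sham groups were alike and the TAC groups were lower, with CD3ϵ-/- TAC the lowest. Jun, a subunit of AP-1, was at 2891, 2758, 1240.1, 634 and 843 CPM, with log2 ratios of -1.21 and -2.10. Klf2, a factor that restrains the activation of myeloid cells, was at 493, 672, 133, 59.5 and 133 CPM, with log2 ratios of -1.81 and -3.29. Zfp36, which breaks down cytokine mRNAs, was lower by -1.02 and -2.12.

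These genes were spread over many cells in sham hearts. After thinning, Egr1 was read in 60.4% and 68.4% of sham cells and in 51.2%, 38.7% and 56.1% of TAC cells, and Klf2 in 48.5%, 51.9%, 25.6%, 16.1% and 24.6%. The summed list had medians of 9024, 15032, 3954, 3112 and 3107 CPM per cell. The lowest cells were at 217, 0, 46.7, 93.9 and 0 CPM and the highest at 105648, 144242, 75471, 25502 and 36537 CPM, so cells with little signal occurred in all groups. Cells above the common median of the sham groups, 11179 CPM, made up 47.4% (39.4 to 55.6), 52.6% (44.4 to 60.8), 27.5% (20.0 to 36.0), 18.8% (7.21 to 36.4) and 25.4% (15.3 to 37.9). In WT the median of the list was -1.19 in TLF-type macrophages, -0.78 in the other MHC-II-high cells and -0.46 in B cell-like cells, and in CD3ϵ-/- it was -1.12, -0.68 and -0.38. With the first 32 cells of each group, an alternative chosen after the data were seen, the median in WT was -0.32 with 2 genes past the fold, and in CD3ϵ-/- it was -1.89 with 17, so the size in WT depended on which cells were summed.

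Heat shock genes, which code for chaperones, divided into the inducible Hsp70 genes and the rest. Hspa1a was at 1569 (1546 to 1593), 1184 (1164 to 1205), 494 (482 to 506), 144 (132 to 156) and 437 (419.8 to 454) CPM, and Hspa1b at 306, 222, 86.5, 20.6 and 57.8 CPM. Both were lower in each TAC group than in each sham group, with log2 ratios of -1.65 and -2.96 for Hspa1a and -1.71 and -2.92 for Hspa1b, while with the first 32 cells of each group Hspa1a was at 0.22 in WT. The constitutive Hspa8 was at 1308, 1080, 1178, 1487 and 1348 CPM. Of 8 measured genes, 2 were lower in WT, and 3 in CD3ϵ-/-, where the co-chaperone Dnajb1 was lower by -2.37. The list median was -0.48 in WT and -0.48 in CD3ϵ-/-, against -0.49 and 0.22 in TLF-type macrophages. Cells above the common sham median of the summed list, 2245 CPM, made up 51.3%, 48.7%, 40.5%, 56.25% and 46.0%. This share of cells thus showed no common fall after TAC. It does not measure how high the cells above that median lay, where the inducible genes above bear on the sum. In B cell-like cells Hspa1a was between 6.86 and 63.6 CPM. Across cells of a group, the immediate early sum and the heat shock sum ranked alike in sham hearts, with Spearman's rho of 0.67 and 0.58 over 156 and 152 cells, and less so after TAC, with 0.52, 0.18 and 0.39 over 131, 32 and 63 cells. The points of each group share 1 library and their sums are shares of the same total.

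The NF-kB targets were also lower after TAC, while the chemokines went both ways. Of 10 measured NF-kB genes in WT, 4 (Il1a, Tnf, Nfkbiz and Tnfaip3) were lower and none higher, with a median of -0.73. In CD3ϵ-/-, 6 of 9 (Il1b, Tnf, Nfkbia, Nfkbiz, Tnfaip3 and Socs3) were lower and none higher, with a median of -1.59. Tnf, the tumour necrosis factor gene, was at 151 (144 to 158), 119.5 (113 to 126), 54.3 (50.3 to 58.5), 36.5 (30.9 to 42.8) and 14.6 (11.7 to 18) CPM, with each TAC group below each sham group. Nfkbia, the inhibitor that NF-kB itself induces, was at 601, 843, 415, 103 and 242 CPM. Ccl3, an inflammatory chemokine, was at 704, 1052, 263, 64.4 and 190.3 CPM and was read in 58, 63, 34, 3 and 10 cells, and 1 cell held 63.9% of its reads in CD3ϵ-/- TAC. With the first 32 cells of each group Ccl3 was at 0.02 in WT, in place of -1.39. Ccl4, its near relative, was at 539, 827, 234, 156 and 95.6 CPM. Of the monocyte-attracting chemokines, 2 of 7 (Ccl3 and Ccl4) were lower in WT and none higher, with a median of -0.59. In CD3ϵ-/-, 3 of 8 (Ccl2, Ccl3 and Ccl4) were lower and 2 (Ccl8 and Ccl12) higher, with a median of -0.06. Among 4 measured lymphocyte-attracting chemokines in CD3ϵ-/-, Cxcl2 was lower and Cxcl10 higher by 3.06, and 1 cell held 97.2% of the Cxcl10 reads of CD3ϵ-/- TAC. The NF-kB sum ranked with the immediate early sum across cells, with rho of 0.71, 0.69, 0.56, 0.65 and 0.47.

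**Figure D4:**
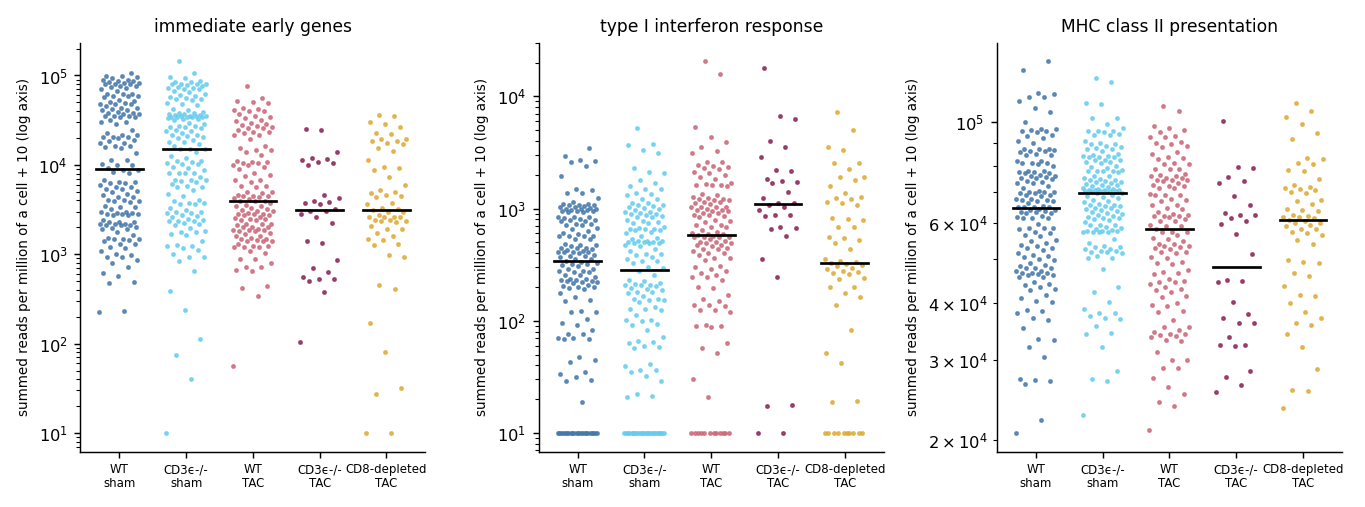
Summed level per MHC-II-high resident macrophage of the immediate early, type I interferon and MHC class II lists in each group (CPM plus 10, log axis), with 1 point per cell and a black line at the median. The immediate early medians are 9024 and 15032 CPM in the sham groups and 3107 to 3954 CPM in the TAC groups, the interferon median is highest in CD3ϵ-/- TAC at 1089 CPM, and the MHC class II medians run from 48028 CPM in CD3ϵ-/- TAC to 69758 CPM in CD3ϵ-/- sham.

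Genes of the type I interferon response, which set up an antiviral state, were higher after TAC in both genotypes. In WT, 4 of 7 measured genes, Ifit3, Irf7 and Oasl2 among them, were higher by 2-fold or more, with a median of 1.01, and in CD3ϵ-/- 11 of 13, with a median of 2.29. None was lower. Irf7, the factor that amplifies interferon production, was at 26.7 (23.7 to 30.0), 55.8 (51.4 to 60.5), 110.4 (105 to 116), 255 (240.3 to 271) and 153 (143 to 163) CPM. Each TAC group was above each sham group, yet Irf7 was read in only 11, 16, 35, 14 and 15 cells. Stat2 was more widely read, in 32.1%, 30.1%, 42.4%, 71.0% and 40.4% of thinned cells, and was at 62.0, 49.8, 111, 283 and 109 CPM, with log2 ratios of 0.75 and 2.29. Ly6e, an interferon-induced surface protein outside the list, was at 291 (281 to 301), 267 (257 to 277), 949 (932 to 966), 1625 (1587 to 1665) and 1040.4 (1014 to 1067) CPM and was read in 44.0%, 36.8%, 65.6%, 83.9% and 70.2% of thinned cells.

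The signal in CD3ϵ-/- TAC lay partly in single cells. One cell of 32 held 77.2% of the reads of Ifit1 in that group, 72.5% of those of Ifit2 and 68.2% of those of Ifit3. With the top cell of each gene left out of each group, an alternative chosen after the data were seen, the list had a median of 2.22 over CD3ϵ-/- sham with 11 genes past the fold and of 1.07 in WT with 4. The summed list had medians of 328, 276, 575, 1089 and 321 CPM per cell and highest cells at 3455, 5187, 20537, 17783 and 7286 CPM. Cells above the sham median of 313 CPM made up 51.3% (43.2 to 59.4), 48.7% (40.5 to 56.9), 68.7% (60.0 to 76.5), 84.4% (67.2 to 94.7) and 50.8% (37.9 to 63.6), so the median cell of CD8-depleted TAC was like that of the sham groups. The sum had rho of 0.18, 0.10, 0.28, 0.44 and 0.29 with the reads per cell, and the part of depth in the sums was not tested. Without cells with Ccr2 at 500 CPM or more, also chosen after the data were seen, the WT median was 0.60 with none past the fold, and that of CD3ϵ-/- was 2.56 with 12. In TLF-type macrophages of WT the median of the list was 0.70, in the other MHC-II-high cells 0.95 and in B cell-like cells -0.32. In CD3ϵ-/- these medians were 0.79, 2.11 and 0.46, so the other MHC-II-high cells were close to the 2.29 of the MHC-II-high resident macrophages.

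The promoters of interferon genes are shown because the type I interferon list was higher after TAC in both genotypes. Whether its members moved together across cells was not tested. The interferon-stimulated response element, searched as GAAANNGAAA on both strands, lay within 250 bases before the start of 7 of 11 type I interferon genes with an entry in RefSeq on GRCm38.p6 and of 2.98% of all windows. It lay before 9 of 11 genes of the interferon-gamma list. Its letters are in capitals in the 3 genes shown, Ifit1 (chr19:34640729-34640888, plus strand), Ifit3 (chr19:34583369-34583528, plus strand) and Isg15 (chr4:156200819-156200978, minus strand).
Ifit1: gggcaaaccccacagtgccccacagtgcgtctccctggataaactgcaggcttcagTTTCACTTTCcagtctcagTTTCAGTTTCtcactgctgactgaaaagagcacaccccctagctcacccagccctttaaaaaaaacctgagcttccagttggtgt
Ifit3: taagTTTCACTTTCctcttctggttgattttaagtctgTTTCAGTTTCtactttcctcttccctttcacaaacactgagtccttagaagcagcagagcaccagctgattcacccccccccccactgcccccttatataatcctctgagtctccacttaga
Isg15: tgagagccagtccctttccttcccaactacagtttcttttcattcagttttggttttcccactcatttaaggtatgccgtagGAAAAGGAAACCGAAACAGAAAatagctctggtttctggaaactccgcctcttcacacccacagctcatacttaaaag
In Ifit1 and Ifit3 the motif is read on the other strand, and in Isg15 the matches overlap one another. The other motifs searched were the cyclic AMP response element TGACGTCA, found in 2 of 16 immediate early promoters and 1.55% of all windows, and the heat shock element TTCNNGAA, found in 3 of 8 heat shock promoters and 7.17% of all windows.

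Among other genes higher after TAC, Ctsd, Ms4a7 and Fcgr4 were read in many cells of both genotypes. Ctsd, the lysosomal aspartic protease cathepsin D, was at 159 (151 to 166), 195 (186 to 203), 546 (533 to 559), 702 (676 to 728) and 541 (523 to 561) CPM, and was read in 28.4%, 40.6%, 61.6%, 77.4% and 63.2% of thinned cells. Ms4a7, a membrane protein of mature macrophages, was at 259.8 (250.3 to 269.6), 263 (253 to 273), 765 (749 to 779.9), 737 (711 to 764) and 637 (616 to 657) CPM, and was read in 44.8%, 54.1%, 73.6%, 74.2% and 66.7% of thinned cells. Both were high in all 3 TAC groups and low in both sham groups. Their log2 ratios were 1.72 and 1.80 for Ctsd and 1.52 and 1.45 for Ms4a7, so the genotypes were close. Fcgr4, an activating receptor for IgG, was at 60.3 (55.8 to 65.1), 116 (109.9 to 123), 218 (209.6 to 226), 322 (305 to 340.3) and 319 (305 to 334) CPM, with ratios of 1.70 and 1.40. Sirpb1c was read in 6 and 10 sham cells and in 45, 12 and 20 TAC cells, at 13.8, 28.1, 129, 167 and 147 CPM. Ctsd was higher in TLF-type macrophages too, by 2.94 and 2.49, and by 0.66 and 0.19 in the other MHC-II-high cells, whereas Ms4a7 was higher by 1.23 and 1.44 in the former and by 2.43 and 2.44 in the latter.

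Of the 14 measured lysosome and cathepsin genes, Ctsd alone passed the fold in WT and in CD3ϵ-/-, while 12 and 14 of them lay above 0, with medians of 0.28 and 0.63 against 0.03 and 0.12 over all genes. Ctss, which trims the invariant chain, was at 2721, 2643, 3238, 4562 and 3599 CPM, and Lgmn, legumain, at 874, 969, 1336, 1664 and 1319 CPM. The resident identity list moved little, with a median of 0.06 in WT, where Ms4a7 alone of 14 genes passed the fold, and of 0.42 in CD3ϵ-/-, where Fcgr1, Ms4a7 and Siglec1 of 15 were higher and 1 gene was lower. Lgals3, galectin-3, was at 110.0, 279, 337, 392 and 542 CPM and was higher in WT by 1.53. Mmp13 was at 446 (433 to 459), 318 (308 to 329), 261 (252 to 270.1), 105 (95.3 to 115) and 211 (199 to 223) CPM, and its log2 ratio was -0.75 in WT and -1.51 in CD3ϵ-/-, where 6 cells held its reads.

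**Figure D5:**
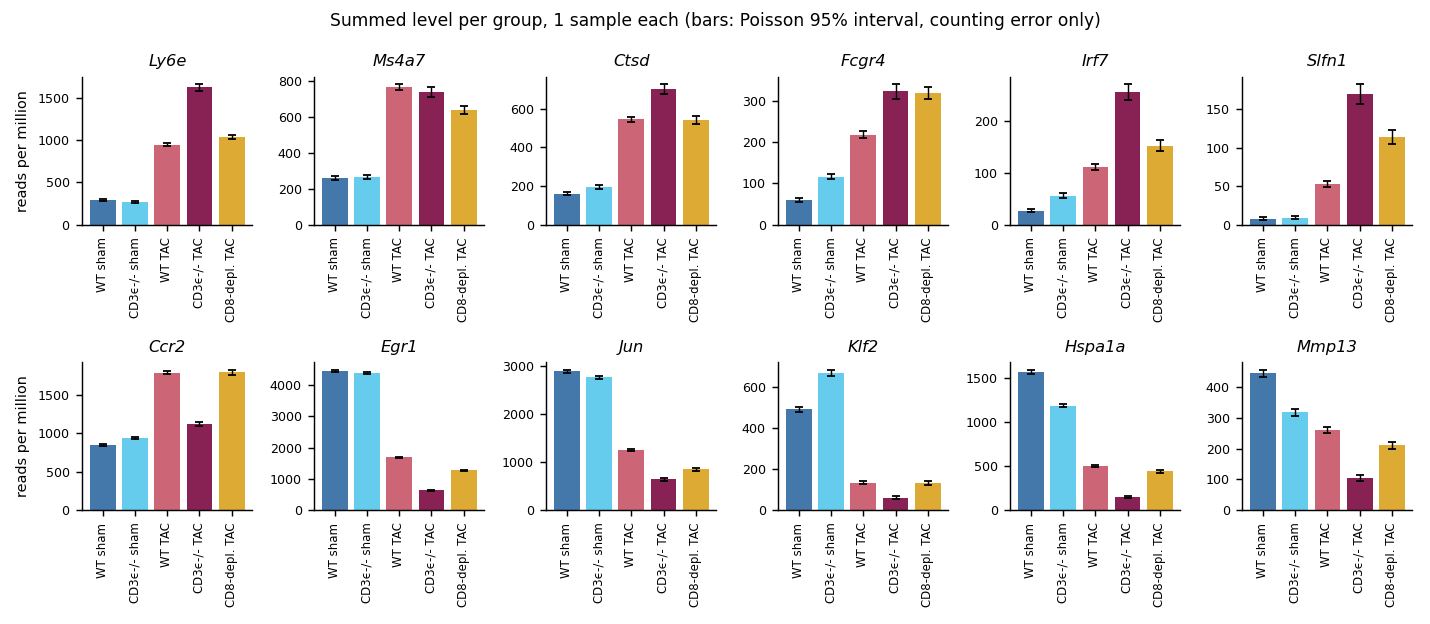
Level of 12 genes in MHC-II-high resident macrophages (CPM, bars from 0) in each of the 5 groups, with exact Poisson 95% intervals for counting error. Ctsd (159 and 195 CPM in sham, 541 to 702 CPM after TAC) and Ms4a7 are high in all 3 TAC groups, and Egr1 and Hspa1a are high in both sham groups.

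The cells of the TAC groups held more of a monocyte gene. Ccr2 was at 848 (831 to 866), 938 (920.2 to 957), 1789.9 (1767 to 1813), 1120.3 (1088 to 1153) and 1796 (1762 to 1831) CPM, and the share of cells with 500 CPM or more was 28.8% (21.9 to 36.6), 31.6% (24.3 to 39.6), 57.3% (48.3 to 65.9), 46.9% (29.1 to 65.3) and 54.0% (40.9 to 66.6). Its log2 ratio of TAC to sham was 1.07 in WT and 0.25 in CD3ϵ-/-. In the other MHC-II-high cells it was at 2133 to 2826 CPM. The 13 monocyte genes summed to 936, 1045, 1921, 1684 and 2261 CPM, against 3860 to 6670 CPM in the other MHC-II-high cells, with 5, 6, 5, 3 and 2 of them at 0. The median cell had 14.8, 19.5, 983, 293 and 1264 CPM of them. Other monocyte genes were in few cells: Ly6c2 was at 50 CPM or more in 5, 4, 5, 4 and 4 cells and Plac8 in 1, 1, 0, 4 and 3, where the exact interval for none of 131 cells reaches 2.78%. Dendritic cell genes summed to 327, 341, 446, 407 and 414 CPM, and Cd209a was in 3 cells of WT TAC alone. The part of cells of monocyte origin in the differences above was not tested beyond the values without Ccr2 cells.

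Between the sham groups, the MHC-II-high resident macrophages of WT and CD3ϵ-/- mice were close. Of 3676 genes, 24 (0.653%) were higher by 2-fold or more in CD3ϵ-/- and 19 (0.517%) lower, with a median of -0.03 over all genes. The lists had medians of 0.10 for 18 immediate early genes, -0.03 for 8 heat shock genes, 0.15 for 6 type I interferon genes and 0.02 for 9 class II genes, with no member past the fold. Among the lists with 5 or more measured genes, that of monocyte-attracting chemokines had the highest median, 0.57, where all 7 measured genes lay above 0 and Ccl7 alone passed the fold. Ccl7 was at 61.8 and 163 CPM, read in 10 and 18 cells. Lgals3 was higher by 1.27, but turned to -0.18 with H2-Ab1 at 1500 CPM and to -0.27 with the first 32 cells of each group. Retnla, a secreted protein of alternatively activated macrophages, had the highest ratio, 3.54, at 31.3 and 469.8 CPM, but 1 cell held 61.2% of its reads in CD3ϵ-/- sham, and the ratio was -0.43 without the 5% of cells with most reads. Il1a was lower, at 82.2 and 15.2 CPM, and was read in 9 and 6 cells.

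The comparison of CD3ϵ-/- TAC with WT TAC asked how these macrophages differed under load when T cells were lacking. Of 3910 genes, 148 (3.79%) were higher and 123 (3.15%) lower. The split was 123 and 143 with scaling by the median ratio of genes, and 62 and 188 without the top cell of each gene in each group. The type I interferon genes stood out with 9 of 13 measured members higher, 13 of 13 above 0 and a median of 1.27 against 0.06 over all genes, and of 1.03 with 7 members higher without the top cell of each gene. As a mean over cells, which gives each cell the same weight, the median was 0.93 with 4 members higher. In the other classes the median of the same genes was -0.38 in TLF-type macrophages, 0.69 in the other MHC-II-high cells and 0.49 in B cell-like cells. The higher level was thus not particular to the MHC-II-high resident macrophages, and TLF-type macrophages did not share it. Stat2 was higher by 1.27. Isg15, a ubiquitin-like protein, was at 36.7 and 169 CPM, read in 13 of 131 and 9 of 32 cells. The 9 measured MHC class I genes all lay above 0 with a median of 0.51 and none past the fold. Immediate early genes had a median of -0.60 with 5 of 16 lower (Egr1, Dusp1, Zfp36, Klf2 and Klf4), and class II genes -0.18 with none past the fold. Of 8 measured monocyte-attracting chemokines, 3 (Ccl7, Ccl8 and Ccl12) were higher and Ccl3 was lower by -1.87, with a median of 0.46. Ccl2 did not pass the fold. The Ccr2 ligand Ccl7 was at 37.7 and 176 CPM and the Ccr2 ligand Ccl12 at 149 and 616 CPM, read in 28 and 17 cells. One cell held 55.5% of the Ccl12 reads of CD3ϵ-/- TAC, and without the top cells its log2 ratio was 1.23 in place of 1.98.

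The genes of the highest ratio in this comparison rested on a handful of cells. Plac8 was read in 0 and 4 cells, Ccl8 was at 4.55 and 108 CPM with 4 cells in CD3ϵ-/- TAC, Thbs1, thrombospondin-1, was at 11.5 and 135 CPM with 2 cells, and Cxcl10, an interferon-induced chemokine, was at 18 and 175 CPM with 2 cells. Without the top cell Cxcl10 was at -0.35, and without the cells with Ccr2 at 500 CPM or more Ly6c2 was at -0.35 and Thbs1 at -0.85, so these 3 are not described as differences of the macrophages at large.

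The comparison of CD8-depleted TAC with WT TAC asked what the antibody to CD8 changed under load. It shares WT TAC with the comparison above. Cells with 3 or 4 resident genes made up 30.2% of the macrophages in CD8-depleted TAC and 54.2% in WT TAC. With at least 3 required, which left 19 cells in CD8-depleted TAC, 730 genes passed the fold in place of 100. Of 3884 genes, 50 (1.29%) were higher and 50 (1.29%) lower, with a median of 0.04. The split was 41 and 55 with scaling by the median ratio, and 23 and 73 without the top cell of each gene. The type I interferon list had a median of 0.06 over 8 genes, the class II list -0.02 over 9 and the heat shock list -0.16 over 8, with no member past the fold. The immediate early list had a median of -0.45 over 16 genes, with Nr4a1 higher and Ier3 lower. Side by side, Irf7 differed by 1.14 in CD3ϵ-/- TAC and by 0.43 in CD8-depleted TAC over the same WT TAC cells, Ly6e by 0.77 and 0.13, and Egr1 by -1.42 and -0.41. Tnf was lower by -1.39 in CD8-depleted TAC and Igf1, insulin-like growth factor 1, by -1.01. Igf1 was at 221, 172, 341, 273 and 164 CPM in the 5 groups, lowest in CD8-depleted TAC, and was read in 42.1% of its thinned cells against 45.6% in WT TAC. Cfp, properdin, which stabilizes the complement convertase, was higher, at 106 and 228 CPM. Pdlim1 was at 63.2 and 7.21 CPM, read in 43 of 131 and 7 of 63 cells.

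Beside the relations of the immediate early sum with the heat shock and NF-kB sums given above, 6 other pairs of sums were compared across the cells of a group. The immediate early sum and the interferon sum had rho of -0.05, -0.07, 0.01, 0.16 and 0.12 across cells, and the immediate early sum and the class II sum -0.26, -0.13, 0.02, 0.00 and -0.04. The interferon-gamma and type I interferon sums had rho of 0.20, 0.16, 0.43, 0.46 and 0.25. The immediate early sum and the lysosome sum had rho of -0.43, -0.13, -0.11, 0.09 and -0.30. The class II sum had rho between -0.06 and 0.07 with the resident identity sum and between -0.11 and 0.18 with the type I interferon sum. All these values describe the cells of 1 library, whose sums share a total, and the weak ones are no finding.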

How the data were processed

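The authors deposited raw counts, namely whole numbers of reads per gene and cell barcode, after error correction and after assignment of hashtags, with 40 columns called doublets and 8 without a hashtag, which were not used here. Cutadapt 2.10, Bowtie2 2.4.2 and the build GRCm38 are named in the submitters' processing notes without their roles. Of 5315 hashtag columns, 5263 had at least 500 genes and a mitochondrial share of at most 0.4. No further doublet caller was run. Groups came from the hashtag notes deposited with the matrix.

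Levels are summed reads of a group's cells per 1000000 of their total (CPM), with exact Poisson intervals, and shares have exact Clopper-Pearson intervals, both of 95%. Log2 ratios had 10 CPM added, a gene entered with 50 CPM or more in either group, the 13 genes of the rule were left out, and past the fold means a log2 ratio of at least 1 in size. With 1 sample per group, nothing was tested and no p-value or error between groups is given. B cell-like cells had at least 2 B cell markers at 50 CPM or more and Csf1r below 100 CPM.

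The members and the 30 gene lists were chosen with earlier results of these data known. Named genes were the genes of the rule, the 12 highest and lowest by the least extreme ratio to each neighbouring class and of TAC to sham, the 8 highest and lowest of the other comparisons, the list members past the fold or else the most abundant, and genes named for these cells by the study. Some items are not reported here. A gene outside these rules was named after its values were seen. The steps were tested on simulated data. Software was Python 3.11.15 (matplotlib 3.10.9, pandas 2.3.3, scipy 1.17.1, numpy 2.4.6).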

Additional observations from a re-analysis of the deposited data

Results flagged for a closer look

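Nub1, which codes for an adaptor that directs NEDD8 conjugates to the proteasome and is induced by interferon, passed the fold in opposite directions in the genotypes. Its log2 ratio of TAC to sham was 1.12 in WT and -1.04 in CD3ϵ-/-. It was at 32.9, 53.1, 83.2, 20.8 and 69.3 CPM and was read in 32 of 156, 44 of 152, 50 of 131, 11 of 32 and 22 of 63 cells, with 11.2%, 10.8%, 7.63%, 22.1% and 16.8% of its reads in 1 cell. With 1 sample per group, the difference between the genotypes was not tested.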

How the results depend on the processing

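No replicate could be left out and no paired analysis was possible because each group was 1 sample. Both sham shares lay above all TAC shares, and CD3ϵ-/- TAC had the lowest, under each alternative for the shares. The share of the cells in WT sham, CD3ϵ-/- sham, WT TAC and CD3ϵ-/- TAC was 12.2%, 15.4%, 6.01% and 1.96% with H2-Ab1 at 6000 CPM. In all 5 groups it was 19.7%, 23.2%, 14.2%, 10.4% and 13.2% with 1 resident gene, 10.3%, 12%, 4.40%, 1.74% and 2.13% with 3, and 27.1%, 33.1%, 11.9%, 4.83% and 10.1% of Csf1r cells. With no gene of the Lyve1 set at its limit it was 9.80%, 12.7%, 5.57% and 5.26% in the groups other than CD3ϵ-/- TAC, and with no limit on them it was 20.2% and 21.7% in the sham groups.

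The counts of genes past the fold changed with the floor, the amount added and the choice of cells. They were 97 in WT and 420 in CD3ϵ-/- for TAC over sham, 43 for CD3ϵ-/- sham over WT sham, 271 for CD3ϵ-/- TAC and 100 for CD8-depleted TAC over WT TAC. In that order they were 305, 1149, 235, 873 and 439 with a floor of 10 CPM, 28, 96, 2, 32 and 3 with a floor of 200 CPM, 29, 125, 4, 44 and 6 with 50 CPM added, and 160, 837, 124, 728 and 730 with 3 resident genes. With 1 CPM added they were 146 in WT, 97 between the sham groups and 189 for CD8-depleted TAC, for which a mean over cells gave 158 and H2-Ab1 at 1500 CPM gave 64. Chosen after the data were seen, the first 32 cells of each group gave 793, 820, 865, 554 and 602, and cells without Ccr2 at 500 CPM gave 260, 922, 127, 891 and 713.

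Of 96 named ratios, 91 kept their direction with 32 cells per group and 95 without the top cell of each gene. Those that turned, for TAC over sham in WT, were Fn1 with H2-Ab1 at 1500 CPM (-0.15) and, with 32 cells, Hspa1a (0.22), Atf3 (0.22) and Ccl3 (0.02). In CD3ϵ-/- Fn1 turned with 3 resident genes (-1.64). Between the sham groups Retnla turned without the 5% of cells with most reads (-0.43), and Lgals3 with H2-Ab1 at 1500 CPM (-0.18) and with 32 cells (-0.27). For CD3ϵ-/- TAC over WT TAC, Ly6c2 (-0.35) and Thbs1 (-0.85) turned without cells with Ccr2, Ly6a with 3 resident genes (-1.99) and Cxcl10 without its top cell (-0.35). For CD8-depleted TAC, Ly6a (-0.03) and Il7r (-0.72) turned with 3 resident genes, Ceacam1 without the 5% of cells with most reads (-0.28) and without cells with monocyte genes (-0.08), and Thbs1 with 32 cells (-1.05). The cause was not tested. Genes read in few of the 32 cells of CD3ϵ-/- TAC rest on the fewest cells, although this group had the highest median of reads per cell.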

Other observations

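Glycolysis genes and MHC class I genes had higher medians of TAC over sham in CD3ϵ-/- than in WT. Only the glycolysis genes had members past the fold. Over all genes in CD3ϵ-/-, 5.86% were higher by 2-fold or more, with a median of 0.12. In TLF-type macrophages of CD3ϵ-/- the glycolysis median was 1.09 and the class I median 0.20. In the other MHC-II-high cells they were 0.10 and 0.88. Of 10 measured glycolysis genes, 4 (Pgk1, Pgam1, Eno1 and the glucose transporter Slc2a1) were higher than in CD3ϵ-/- sham, with a median log2 ratio of 0.91, and none of 8 in WT, with a median of 0.22. Eno1, enolase, was at 235, 182, 264, 423 and 292 CPM, and Ldha, lactate dehydrogenase, at 129, 176, 234, 350.1 and 257 CPM. All 9 measured MHC class I genes lay above 0 in CD3ϵ-/- with a median of 0.59, and 7 of 9 in WT with a median of 0.27, with none past the fold in either. B2m, the light chain of class I, was at 3588, 3781, 4418, 6115 and 4584 CPM, and H2-K1 at 1139.9, 1207, 1591, 2399.7 and 1679 CPM. The interferon-gamma-induced GTPase genes Gbp2, Iigp1, Irgm1 and Irgm2 were higher in CD3ϵ-/- TAC, 4 of 7 measured on their list, with a median of 1.18. The median of that list was 0.03 in TLF-type macrophages and 1.11 in the other MHC-II-high cells. The 17 nuclear genes of oxidative phosphorylation had a median of 0.11 in WT with none past the fold. In CD3ϵ-/- their median was 0.29, and Uqcrq alone passed the fold, by 1.01.

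Genes that the study followed in its CD45+ cells ranged from abundant to unread in these macrophages. Lyz2, lysozyme 2, was at 8982, 8690.1, 9634, 8133 and 10327 CPM, Adgre1, the antigen F4/80, at 678, 659, 699.6, 895 and 718 CPM, and Cd68 at 592, 663, 651, 679.6 and 623 CPM. Tlr4 was at 64.3, 43.1, 55.8, 54.9 and 47.9 CPM. Arg1 and Areg had no read in any group, and 0 reads allow at most 0.339, 0.343, 0.289, 0.892 and 0.633 CPM by the exact interval. Osm, oncostatin M, was at 13.6, 14.4, 16.3, 44.8 and 41.5 CPM, Il10 at 0 to 12.1 CPM and Csf1 at 0 to 21.5 CPM. Each was highest in CD3ϵ-/- TAC, the group with the fewest of these macrophages. Osm, Il10 and Csf1 lay below the floor of 50 CPM in every group, so they entered no comparison between groups at that floor. How many cells held their reads is not given, and the order of the groups was not tested. Spp1, osteopontin, was at 40.8, 22.1, 80.0, 329 and 50.3 CPM, and 1 cell held 45.3% of its reads in CD3ϵ-/- TAC. Apoe was at 13532, 14248, 21351, 19704 and 19196 CPM, with log2 ratios of TAC to sham of 0.66 and 0.47.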
